A study of Homo sapiens with 16 samples.

Results

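The genes described here are 35 human genes of ribosome biogenesis and of the classical MYC target set, chosen by name among 20037 protein-coding genes placed on a chromosome. All 35 were found in the RefSeq gene table of GRCh38. They were followed through 13 lists of chromatin immunoprecipitation peaks from U2OS-CHRONO and U2OS cells. U2OS is a human osteosarcoma cell line, and U2OS-CHRONO is a line of the same cell type whose label names CHRONO, the product of CIART and a known repressor of the circadian activator BMAL1. How the line was made is not given in the sources used here. BMAL1 was precipitated from U2OS-CHRONO at 6 times and from U2OS at the same 6 times, with 1 library per line and time. Both lines had received 200 nM dexamethasone, which sets cultured clocks to a common phase, and were collected at 4 h steps labelled 0 to 20 h. Collection began 4 h ahead of the lowest signal of a luciferase reporter driven by the BMAL1 promoter. One further library came from U2OS-CHRONO with an antibody labelled Myc, with no treatment or time label. The series design names its target Myc-CHRONO, and peaks of a tagged CHRONO and of the MYC protein itself cannot be told apart in its list.

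MYC is a transcription factor that pairs with MAX, binds the DNA motif CACGTG, called an E-box, and is known to raise the production of ribosomes by acting on genes for RNA polymerase I, for the processing of ribosomal RNA and for protein synthesis. BMAL1 pairs with CLOCK and binds the same core motif. Promoters with this motif can therefore be bound by either pair, and genes of ribosome production are known clock outputs in mouse liver.

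Peak lists were the measured quantity, read depth is unknown, and list length differed. U2OS-CHRONO lists held 2429 to 9391 BMAL1 peaks, U2OS lists 337 to 6012, with the shortest list of each line at 8 h, and the Myc list held 2487. A peak was assigned to a gene end when it overlapped the span of 1 kb to either side of either end of the gene, and to the wider window when it lay in the gene or within 5 kb. The times of a line are not replicates, so SDs over the 6 times mix time with library. The score of a peak is the authors' own, and its percentile is the share of peaks in the same list with that score or a lower one. Percentiles from lists of unequal length describe each list and are not compared between lines.

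BMAL1 peaks lay at the ends of 23 of the 35 genes in at least 1 of the 12 libraries, a share of 65.7%, against 20.8% of all protein-coding genes. In 6 or more libraries 13 of the 35 had a gene-end peak (37.1%), against 4.66% of all genes. The median member had such a peak in 1 library and the median gene of the genome in 0. RRP9 had one in all 12 libraries (0.359% of all genes did), NCL in 11, NPM1 in 10, and EIF4E, EIF4A1, APEX1 and BOP1 in 9. A peak in 7 libraries marked POLR1A and WDR43, and a peak in 6 marked GNL3, ODC1, CAD and HSPD1. Of the rest, 3 genes had a gene-end peak in 2 to 5 libraries, 7 in a single library and 12 in none. With only peaks that scored 100 or higher, 13 of the 35 had a gene-end peak in some library, against 7.61% of all genes. With the wider window 26 of the 35 had a peak in some library (41.5% of all genes), and RRP9, NPM1 and APEX1 had one in all 12 (0.804% of all genes).

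**Figure D1:**
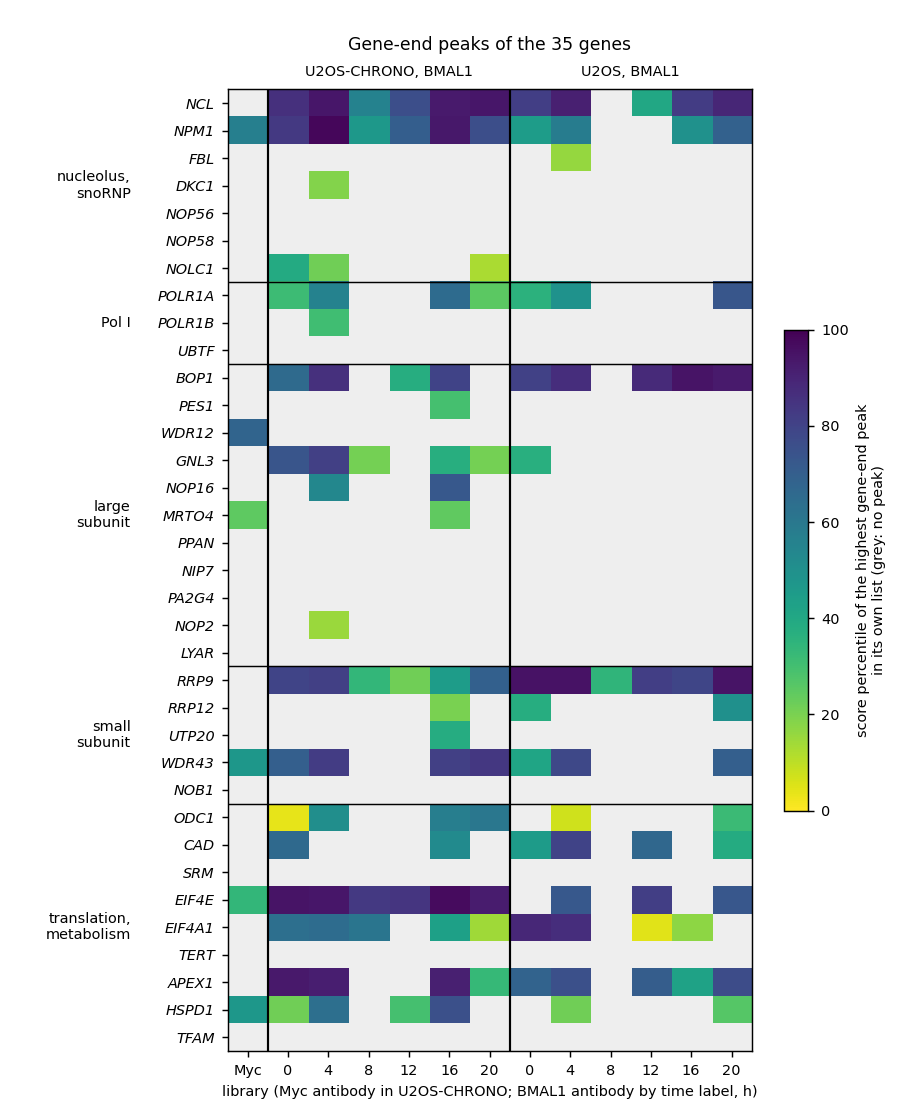
Rows are the 35 genes grouped by role, and columns are the Myc library, the 6 U2OS-CHRONO BMAL1 libraries and the 6 U2OS BMAL1 libraries by time label. Colour gives the score percentile (0 to 100) of the highest gene-end peak within its own list, and grey marks no gene-end peak. RRP9 is filled in all 12 BMAL1 libraries, and 11 genes are grey in every column.

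RefSeq promoter windows of GRCh38.p14, which run from 250 bases before to 50 after an annotated start, were matched by symbol for 31 of the 35 genes, with 39 windows in all. For 6 of the genes marked in 9 or more libraries, the sequence from 250 bases before the start to 29 past it is shown 5′ to 3′ on the strand of the gene. Each window is the one whose start is nearest to the BMAL1 peaks. They lie at chr3:51941875-51942154 (minus strand) for RRP9, chr2:231464455-231464734 (minus strand) for NCL, chr5:171387599-171387878 (plus strand) for NPM1, chr4:98929104-98929383 (minus strand) for EIF4E, chr14:20454976-20455255 (plus strand) for APEX1 and chr17:7572575-7572854 (plus strand) for EIF4A1. Capitals mark CACGTG, so that windows with and without the motif can be compared at genes with recurrent peaks.
RRP9: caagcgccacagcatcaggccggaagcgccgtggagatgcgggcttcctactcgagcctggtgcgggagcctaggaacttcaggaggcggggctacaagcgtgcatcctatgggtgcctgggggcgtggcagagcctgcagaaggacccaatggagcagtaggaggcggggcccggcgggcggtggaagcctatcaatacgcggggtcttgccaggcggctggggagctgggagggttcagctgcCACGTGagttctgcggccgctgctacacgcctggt
NCL: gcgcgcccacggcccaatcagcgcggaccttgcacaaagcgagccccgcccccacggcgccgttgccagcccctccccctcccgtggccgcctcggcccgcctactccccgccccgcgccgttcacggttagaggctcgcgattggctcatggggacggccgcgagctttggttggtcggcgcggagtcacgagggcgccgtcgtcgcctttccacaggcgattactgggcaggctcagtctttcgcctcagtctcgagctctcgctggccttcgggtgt
NPM1: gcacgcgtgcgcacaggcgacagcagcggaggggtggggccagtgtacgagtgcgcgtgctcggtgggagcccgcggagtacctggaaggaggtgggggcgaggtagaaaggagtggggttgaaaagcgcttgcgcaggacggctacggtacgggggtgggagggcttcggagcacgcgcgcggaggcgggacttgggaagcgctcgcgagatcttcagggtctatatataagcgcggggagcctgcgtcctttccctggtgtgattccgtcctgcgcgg
EIF4E: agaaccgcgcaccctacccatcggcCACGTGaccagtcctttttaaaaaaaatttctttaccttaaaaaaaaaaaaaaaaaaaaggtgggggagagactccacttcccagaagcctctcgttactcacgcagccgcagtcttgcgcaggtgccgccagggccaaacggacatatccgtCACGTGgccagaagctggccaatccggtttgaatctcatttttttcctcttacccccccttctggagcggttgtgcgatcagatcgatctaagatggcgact
APEX1: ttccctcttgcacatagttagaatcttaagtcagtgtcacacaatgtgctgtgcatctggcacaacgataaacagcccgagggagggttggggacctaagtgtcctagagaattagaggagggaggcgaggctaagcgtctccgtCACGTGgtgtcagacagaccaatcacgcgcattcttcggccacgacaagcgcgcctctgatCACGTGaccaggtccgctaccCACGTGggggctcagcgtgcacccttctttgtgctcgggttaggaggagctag
EIF4A1: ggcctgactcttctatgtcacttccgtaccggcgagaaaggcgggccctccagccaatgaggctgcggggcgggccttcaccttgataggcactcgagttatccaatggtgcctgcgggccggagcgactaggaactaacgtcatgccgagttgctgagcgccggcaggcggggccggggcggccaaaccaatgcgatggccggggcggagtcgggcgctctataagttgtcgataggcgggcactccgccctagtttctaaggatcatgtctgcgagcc

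RRP9 had 1 CACGTG across its start, EIF4E had 2 and APEX1 had 3, while NCL, NPM1 and EIF4A1 had none in this window. At RRP9 the motif began 5 bases before the start and lay inside the BMAL1 peak in 6 of 6 U2OS-CHRONO and 6 of 6 U2OS libraries. At EIF4E the motif that began 225 bases before the start lay in a peak in 6 U2OS-CHRONO and 3 U2OS libraries, and the one at 72 bases before it in 4 and 2. All 3 motifs of APEX1 lay in a peak in 4 U2OS-CHRONO and 5 U2OS libraries. The strongest NCL and NPM1 peaks lay past the start and mostly outside these windows, so the absence of the letters says nothing of those regions.

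Over all 31 genes with a window, 15 had a CACGTG (48.4%), against 1727 of 15842 protein-coding genes with a window (10.9%). Several windows, which add chances for a match, were listed for 8 of the 31. In 12 of the 15 the motif lay inside a BMAL1 peak of some library, in 11 for U2OS-CHRONO and in 8 for U2OS. The other 3 are LYAR, SRM and TERT. A share of all genes was not computed for these counts of covered motifs. The U2OS-CHRONO lists were the longer at each time, and MRTO4, NOP2 and UTP20 were covered at 1 U2OS-CHRONO time each. A gene-end BMAL1 peak in any library was found for 12 of the 15 members with the motif (80.0%) and for 8 of the 16 without (50%). Over all protein-coding genes the shares were 44.6% with the motif and 19.0% without. Of 2 variant motifs searched on both strands, CACGTT (or AACGTG) was found in 3 of the 31 genes, against 7.08% of all genes with a window. CACGCG (or CGCGTG) was found in 8 of the 31, against 18.1% of all genes with a window, and 4 times in the NPM1 window shown, where the first 2 matches overlap each other. No member was chosen by its motif, but MYC targets are known for it, so these shares describe the list.

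Genes of the nucleolar scaffold and of the particles that modify ribosomal RNA (the snoRNPs) divided into 2 with recurrent peaks and 5 with few or none. NCL encodes nucleolin, an abundant nucleolar protein of rRNA transcription and processing, and lies at 231453531 to 231464484 on chromosome 2 (GRCh38). Its main BMAL1 peak was called at 6 of 6 U2OS-CHRONO times and 5 of 6 U2OS times, all but 8 h. The score percentile there had a lowest, median and highest value of 55.8, 89.5 and 94.1 in U2OS-CHRONO, and of 39.9, 82.1 and 91.2 in U2OS. The peaks centred about 588 bp inside the gene. A second NCL region, centred 135 bp before the annotated start, had a peak at 0, 4, 12 and 16 h in U2OS-CHRONO and at no U2OS time. Its percentiles ran from 3.3 to 68.6, with a median of 40.5. With both lists of a time cut to equal length, this region had a peak at 0 times in either line.

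NPM1 encodes nucleophosmin, a nucleolar chaperone of ribosome assembly, at 171387116 to 171410900 on chromosome 5. It also had 2 neighbouring regions. The first, at 171387312 to 171388086, had a peak at 6 U2OS-CHRONO times and at 0, 4, 16 and 20 h in U2OS. The second, at 171388094 to 171389110 and centred about 789 bp inside the gene from the nearest annotated start, had a peak at 6 of 6 times in both lines. Its percentiles ran from 39.9 to 98.1 with a median of 95.2 in U2OS-CHRONO, and from 81.0 to 97.7 with a median of 93.3 in U2OS. This second region is only partly reached by the gene-end window, so the gene-end count of NPM1 (6 and 4 times) is lower than its count in the wider window (6 and 6 times).

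FBL, the methyltransferase of box C/D snoRNPs, had a gene-end peak at 0 U2OS-CHRONO times and 1 U2OS time. DKC1, the pseudouridine synthase of the H/ACA class, had one at 1 U2OS-CHRONO time and 0 U2OS times. For NOLC1, a chaperone of both classes, the counts were 3 and 0, with percentiles of 12.7, 21.7 and 38.9 in U2OS-CHRONO. NOP56 and NOP58, the core proteins of box C/D particles, had no peak in any of the 13 lists even in the wider window.

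Among genes of RNA polymerase I, POLR1A, its largest subunit, had a peak at 0, 4, 16 and 20 h in U2OS-CHRONO and at 0, 4 and 20 h in U2OS. The region lay at 86105691 to 86106393 on chromosome 2, also at the end of PTCD3, and its percentiles ran from 25.2 to 65.2 in U2OS-CHRONO and from 35.6 to 73.4 in U2OS. POLR1B, the second-largest subunit, had 1 peak, at 4 h in U2OS-CHRONO. UBTF, an activator of the polymerase, had no gene-end peak. In the wider window it had a peak at 1 U2OS-CHRONO time and 2 U2OS times, at a region that also meets an end of ATXN7L3.

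Of 11 genes for assembly of the large ribosomal subunit, 6 had a gene-end BMAL1 peak. BOP1, PES1 and WDR12 encode the 3 proteins of the PeBoW complex, which acts in processing of the large-subunit RNA, and the 3 genes differed. BOP1, on chromosome 8, had a gene-end peak at 4 U2OS-CHRONO times and 5 U2OS times, in a region that also lies at the end of HSF1. Its percentiles were 65.3, 86.1, 37.6 and 80.0 at 0, 4, 12 and 16 h in U2OS-CHRONO, and 80.7, 86.9, 88.2, 94.7 and 92.6 at 0, 4, 12, 16 and 20 h in U2OS. PES1 had 1 peak at the gene end, at 16 h in U2OS-CHRONO with a percentile of 29.3. A further region lay inside the annotated gene, at 30591362 to 30592414 on chromosome 22, about 79 bp before an annotated start site at 30591910. It had a peak at 6 of 6 U2OS-CHRONO times and at 4 and 20 h in U2OS. The percentiles at PES1 ran from 78.0 to 95.6 in U2OS-CHRONO, with 29.2 and 56.5 in U2OS. WDR12 had no BMAL1 peak in any library.

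GNL3 encodes nucleostemin, a nucleolar GTPase, and its peak region also meets an end of PBRM1. It had a gene-end peak at every U2OS-CHRONO time except 12 h, and at 0 h in U2OS. Its percentiles at 0, 4, 8, 16 and 20 h were 73.6, 80.9, 20.9, 37.2 and 21.1 in U2OS-CHRONO, against 36.9 at 0 h in U2OS. Within the U2OS-CHRONO lists the peak stood high at 0 and 4 h and in the lower part at the other times. NOP16 had a gene-end peak at 2 U2OS-CHRONO times, at a region shared with HIGD2A, and MRTO4 and NOP2 at 1 U2OS-CHRONO time each, all with none in U2OS. PPAN, NIP7 and PA2G4 had no peak in any list within 5 kb of the gene, nor had LYAR.

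Genes of the small subunit included the most recurrent member. RRP9 encodes a protein of the U3 snoRNP, which guides early cleavage of the ribosomal RNA precursor. Its region lay at 51941629 to 51942436 on chromosome 3, over the annotated start, and it also meets the end of PARP3. Peak widths there ran from 362 to 758 bp, and the peak centres of the 12 libraries fell within 99 bp of one another. Percentiles at RRP9 were 21.8, 57.0 and 80.9 (lowest, median, highest) in U2OS-CHRONO and 34.7, 88.1 and 95.2 in U2OS. It was the sole member with a gene-end peak in the U2OS list of 8 h.

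WDR43, a protein of the early pre-ribosome, had a peak at 0, 4, 16 and 20 h in U2OS-CHRONO and at 0, 4 and 20 h in U2OS. Its percentiles ran from 69.8 to 83.7 in U2OS-CHRONO and from 41.3 to 78.5 in U2OS. RRP12, which acts in export of the subunits, had a peak at 1 U2OS-CHRONO time and 2 U2OS times, and UTP20 at 1 and 0. NOB1, the nuclease that completes the small-subunit RNA, had no gene-end peak and 1 peak in the wider window, at 4 h in U2OS.

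The 9 remaining genes, MYC targets of translation and metabolism, included 6 with a gene-end peak in 6 or more libraries and 3 with none. EIF4E, the cap-binding protein of translation initiation, had a peak at 6 of 6 U2OS-CHRONO times and at 4, 12 and 20 h in U2OS, at 98928947 to 98929804 on chromosome 4. Its percentiles were 83.2, 93.1 and 97.1 (lowest, median, highest) in U2OS-CHRONO and 72.6, 72.8 and 81.6 in U2OS. By the percentile of its gene-end peak EIF4E was the highest member at 0, 8, 12 and 16 h in U2OS-CHRONO. RRP9 was the highest at 0, 4 and 20 h in U2OS, and at 8 h it was the only member with such a peak.

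EIF4A1, the helicase that works beside EIF4E, had a gene-end peak at 5 U2OS-CHRONO times and 4 U2OS times. Its upstream region had 5 and 3, and also meets an end of SENP3, another ribosome biogenesis gene. The U2OS peak of 16 h lay in a separate region about 1007 bp past the start. The EIF4A1 percentiles ran from 14.1 to 64.6 in U2OS-CHRONO and from 4.6 to 88.9 in U2OS. APEX1, a DNA repair endonuclease, shares its start region with OSGEP and had a gene-end peak at 4 U2OS-CHRONO times and 5 U2OS times. Percentiles at APEX1 were 93.2, 91.5, 91.0 and 32.9 at 0, 4, 16 and 20 h in U2OS-CHRONO, and 68.1, 75.7, 70.5, 42.5 and 76.6 at 0, 4, 12, 16 and 20 h in U2OS. The stronger APEX1 signal of the wider window, present in all 12 libraries with medians of 98.1 in U2OS-CHRONO and 99.0 in U2OS, lay 6515 bp past the APEX1 start and at the end of the neighbouring gene PIP4P1.

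ODC1, the rate-limiting enzyme of polyamine synthesis, had a gene-end peak at 4 U2OS-CHRONO times and 2 U2OS times. Its percentiles ran from 3.9 to 60.2 in U2OS-CHRONO, with 7.3 and 31.7 in U2OS, where the 2 peaks lay in separate regions. HSPD1, the mitochondrial chaperonin, also had 4 and 2, with percentiles from 21.7 to 75.6 in U2OS-CHRONO and of 21.5 and 26.3 in U2OS. Its start region, shared with HSPE1, had 4 and 1, and the U2OS peak of 20 h lay at the other end of the gene. CAD, which opens pyrimidine synthesis, had 2 and 4, with percentiles of 65.7 and 52.3 at 0 and 16 h in U2OS-CHRONO and of 45.0, 79.7, 66.8 and 38.4 at 0, 4, 12 and 20 h in U2OS. SRM, the next enzyme of polyamine synthesis, and TFAM, which maintains mitochondrial DNA, had no peak in any list. TERT, the catalytic subunit of telomerase, had no gene-end peak, and in the wider window peaks inside the gene at 3 U2OS-CHRONO times and 2 U2OS times.

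The comparison of the lines asked whether BMAL1 was called at more of these genes in U2OS-CHRONO than in U2OS at the same time. U2OS-CHRONO had 14, 17, 6, 6, 18 and 11 of the 35 genes with a gene-end peak at 0, 4, 8, 12, 16 and 20 h. The shares of all protein-coding genes in those libraries were 9.26%, 11.3%, 2.75%, 4.25%, 12.2% and 8.65%. U2OS had 11, 13, 1, 7, 6 and 12 of the 35, beside 5.01%, 6.8%, 0.484%, 2.16%, 3.84% and 6.45% of all genes. The number was thus higher in U2OS-CHRONO at 0, 4, 8 and 16 h and lower by 1 gene at 12 and at 20 h.

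The means were 12.0 ± 5.25 genes in U2OS-CHRONO and 8.33 ± 4.55 in U2OS (SD, n = 6 times), a difference of 3.67 ± 4.80 that lay within the spread over times. The 16 h pair alone differed by 12 genes, and without it the mean difference was 2.0. The share of members over the share of all genes in the same library was 3.63 to 6.22 in U2OS-CHRONO and 4.46 to 9.25 in U2OS. When both lists of a time were reduced to the length of the shorter by keeping their highest scores, the numbers in U2OS-CHRONO were 10, 13, 0, 3, 8 and 11, with 6.18%, 8.11%, 0.444%, 2.33%, 4.53% and 7.88% of all genes. The U2OS lists, the shorter at each time, were unchanged. The mean difference was then -0.83 ± 1.94 genes (U2OS-CHRONO minus U2OS), so its sign turned. With only peaks that scored 100 or higher the means were 5.83 genes in U2OS-CHRONO and 4.0 in U2OS, a difference of 1.83. The mean shares of all genes under that cut-off were 3.24% in U2OS-CHRONO and 1.58% in U2OS. The size of the difference in members thus moved with list length and score, and its sign with list length.

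**Figure D2:**
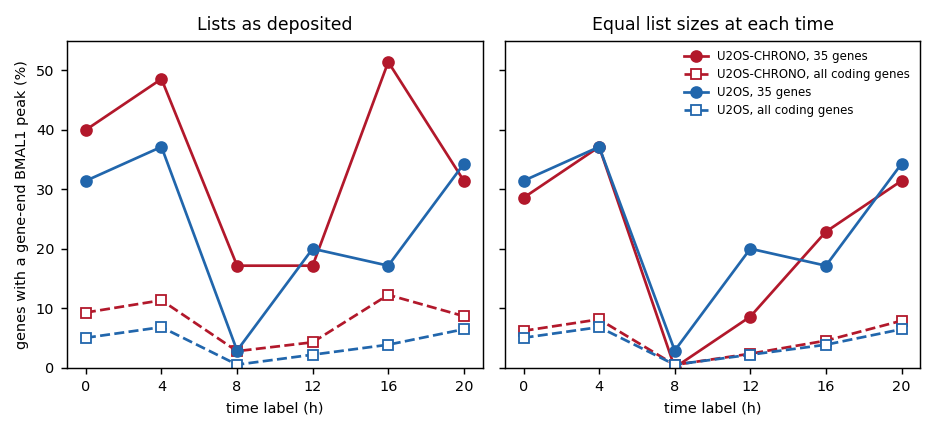
The share of genes with a gene-end BMAL1 peak (percent) is drawn by time label for U2OS-CHRONO and U2OS, with filled circles for the 35 genes and open squares for all protein-coding genes. With the lists as deposited the 35 genes reach 18 of 35 at 16 h in U2OS-CHRONO, against 6 of 35 in U2OS, and at equal list sizes they number 8 and 6.

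In the wider window U2OS-CHRONO had 16, 20, 8, 8, 20 and 13 of the 35 genes from 0 to 20 h, beside 18.4%, 23%, 7.96%, 11.5%, 24.7% and 19.3% of all genes. U2OS had 11, 18, 3, 8, 8 and 13, beside 11.2%, 15.7%, 1.3%, 5.88%, 9.34% and 16.2%. The difference averaged 4.0 ± 4.52 genes (SD, n = 6 times), with U2OS-CHRONO higher at 4 times and equal at 12 and 20 h.

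Gene by gene, 22 of the 35 had a gene-end peak at some U2OS-CHRONO time (18.3% of all genes) and 15 at some U2OS time (11.1% of all genes). Of these, 14 had one in both lines, 8 in U2OS-CHRONO alone (9.75% of all genes) and FBL in U2OS alone (2.59% of all genes). At equal list sizes only NOLC1 (1 time) and NOP16 (2 times) of the 8 kept a gene-end peak. PES1 was among the 8 through a peak at 1 time that also meets the end of TCN2, while its internal start region had peaks in both lines. The number of times with a peak was larger in U2OS-CHRONO for 17 genes (15.1% of all genes), larger in U2OS for 5 (3.48% of all genes) and equal for RRP9. The 5 were FBL, BOP1, RRP12, CAD and APEX1. At equal list sizes it was larger in U2OS-CHRONO for 6 members (7.64% of all genes), larger in U2OS for 8 (5.58% of all genes) and equal for 3 with a peak.

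**Figure D3:**
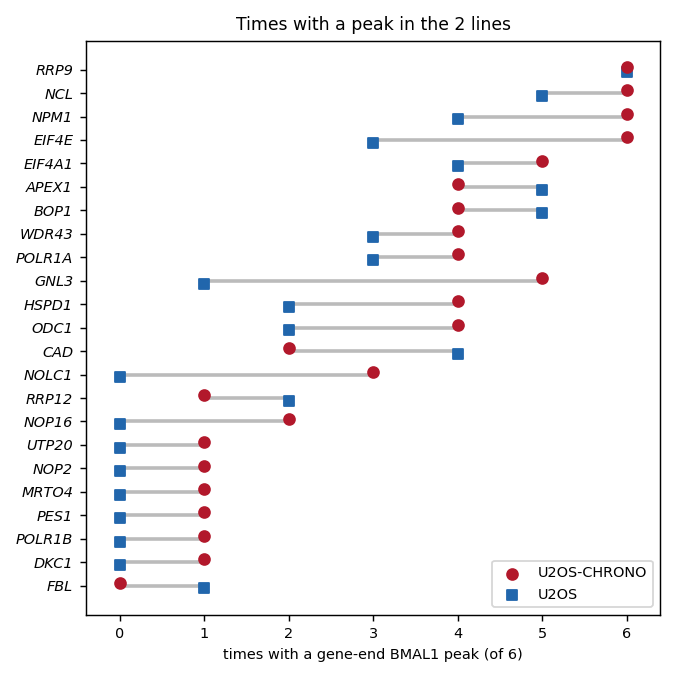
For the 23 genes with any gene-end BMAL1 peak, the number of times with a peak (0 to 6) is drawn for U2OS-CHRONO (circles) and U2OS (squares), joined by a line. GNL3 has the widest gap, with 5 and 1 times, and RRP9 has 6 in both lines.

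A lead of at least 4 times for U2OS-CHRONO was found for GNL3 alone among the members (5 and 1 times), and for 1.48% of all genes. No member had such a lead for U2OS, which 0.025% of all genes had. At equal list sizes GNL3 had 3 and 1 times, and without the 4, 8, 16 or 20 h pair its lead was 3 times. A lead of at least 3 times for U2OS-CHRONO was found for 3 members, against 3.7% of all genes, and one for U2OS for 0 members, against 0.15% of all genes. Beside GNL3 these were EIF4E (6 and 3 times) and NOLC1 (3 and 0). At equal list sizes EIF4E had 5 and 3 times and NOLC1 had 1 and 0. RRP9, with 6 and 6 times, had 3 and 6 at equal list sizes. PES1, outside the gene-end window, had 6 and 2 times at its internal start region, and 5 and 2 at equal list sizes, and it is described here after its values were seen.

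A two-sided exact paired permutation test over the 6 times was run for each of the 20037 genes and adjusted by Benjamini-Hochberg over all of them. It passed 0 genes (0% of all genes), and 6 pairs allow no p below 0.031, so a gene could pass the adjustment only if most genes had that p. The unadjusted exact p was under 0.05 for 16 genes, none of them a member. The lowest exact permutation p of a member was 0.125, for GNL3. The test therefore cannot show whether any of these genes differed between the lines.

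**Figure D4:**
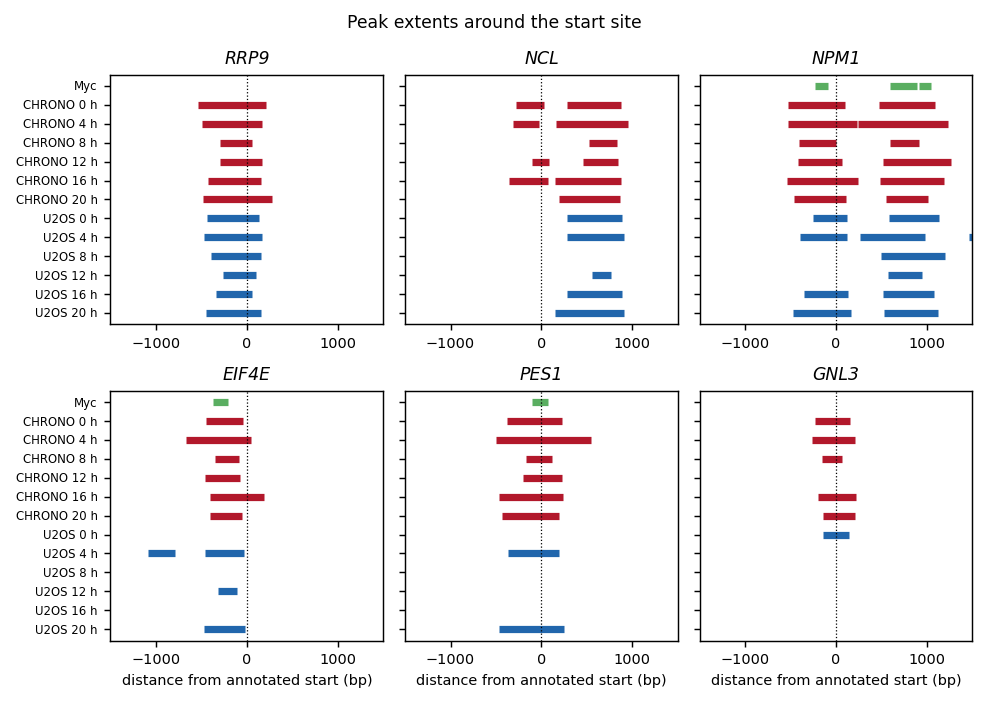
Bars give the extent of each peak around an annotated start (distance in bp, positive into the gene) for 6 genes, with the Myc library at the top, U2OS-CHRONO times below it and U2OS times at the bottom. The RRP9 bars line up over the start in all 12 BMAL1 libraries, the main NCL bars lie inside the gene, and the PES1 start has bars at 6 U2OS-CHRONO times and 2 U2OS times.

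Within the gene-end window, whose rule keeps peaks close to a gene end, distances to the nearest start were as follows. Of the 73 gene-end peaks in U2OS-CHRONO at genes with a known start, 61 (83.6%) had their centre within 500 bp of the nearest start, with a median absolute distance of 181 bp. In U2OS it was 36 of 45 (80.0%), with a median of 156 bp. Where a peak also meets the end of a neighbour, as at RRP9, GNL3 and BOP1, it cannot be assigned to 1 of the genes. Further such neighbours were ATRAID at CAD, EMC1 at MRTO4, TTL at POLR1B, TCN2 at the gene-end peak of PES1 and CD68 at the far end of EIF4A1.

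The Myc library asked which of these genes carried a peak in the precipitate that the series names Myc-CHRONO. It had a gene-end peak at 6 of the 35 genes (17.1%), against 5.37% of all protein-coding genes: NPM1, WDR12, MRTO4, WDR43, EIF4E and HSPD1. In the wider window APEX1 and PES1 made 8 (9.8% of all genes). This is 1 library, so there is no replicate check. The 6 gene-end percentiles ran from 24.8 at MRTO4 to 68.0 at WDR12, and no Myc score at a member's gene end reached 100. Over all genes, 0.629% had a gene-end Myc peak with a score of 100 or higher. The highest Myc peaks near members lay in the wider window, with a percentile of 99.0 at the PIP4P1 end near APEX1 and of 95.6 inside NPM1.

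At 5 of the 35 genes a gene-end Myc peak overlapped a BMAL1 peak of U2OS-CHRONO, against 3.11% of all genes. At 4 of the 35 a gene-end Myc peak overlapped one of U2OS, against 2.46% of all genes. These percentages count genes with and without a Myc peak. They are therefore no baseline for the 5 and the 4 among the 6 genes with a Myc peak. Only 5.37% of all genes had a gene-end Myc peak, so most genes with one had the U2OS-CHRONO overlap. The Myc peak of NPM1 overlapped BMAL1 peaks at 6 U2OS-CHRONO and 4 U2OS times. The counts were 6 and 3 for EIF4E, 4 and 3 for WDR43, 4 and 1 for HSPD1, and 1 and 0 for MRTO4. WDR12 alone had a Myc peak with no BMAL1 peak at its end, as did 1.68% of all genes. That peak lay at 202911889 to 202912056 on chromosome 2, 299 bp before the start, and also meets the end of CARF. RRP9 and NCL, with gene-end BMAL1 peaks in 12 and 11 libraries, had no Myc peak. At PES1 the Myc peak overlapped the internal start region, with BMAL1 at 6 U2OS-CHRONO and 2 U2OS times.

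A CACGTG was present in a promoter window of 4 of the 6 genes with a gene-end Myc peak, against 23.5% of all protein-coding genes with such a peak and a window. For the 3 of them not printed above, and for PES1 and GNL3, whose peaks differed in number of times, the 30 bases around the motif are shown 5′ to 3′ on the strand of the gene, with CACGTG in capitals. They lie at chr2:28894658-28894687 (plus strand) for WDR43, chr1:19251807-19251836 (plus strand) for MRTO4, chr2:197500345-197500374 (minus strand) for HSPD1, chr22:30591880-30591909 (minus strand) for PES1 and chr3:52686026-52686055 (plus strand) for GNL3, in GRCh38.p14.
WDR43: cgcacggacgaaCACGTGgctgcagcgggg
MRTO4: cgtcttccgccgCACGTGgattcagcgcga
HSPD1: cggccctggcgaCACGTGaaaaaatcaccc
PES1: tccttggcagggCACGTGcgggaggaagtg
GNL3: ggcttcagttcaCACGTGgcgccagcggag
The motif began 3 bases past the start at WDR43, 14 past it at MRTO4, 13 past it at PES1 and 6 past it at GNL3, and 88 bases before it at HSPD1. A Myc peak covered the motif at WDR43, MRTO4 and PES1, and at EIF4E the one 225 bases before the start but not the one 72 bases before it. At HSPD1 the Myc peak did not reach it, and BMAL1 peaks covered it at 2 U2OS-CHRONO times and 0 U2OS times. At GNL3 a BMAL1 peak covered it at 5 U2OS-CHRONO times and 1 U2OS time, with no Myc peak.

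Other genes of the same pathways were also marked. Of 119 further ribosome biogenesis genes, 57 (47.9%) had a gene-end BMAL1 peak in some library and 17 (14.3%) in 6 or more. Of these, UTP18 had one in 12 libraries, EXOSC5 and XRN2 in 11 and PNO1 in 9. Of 65 further MYC targets, 41 (63.1%) had a peak in some library and 15 (23.1%) in 6 or more. Among them CDK4, EIF4G1 and PPAT had one in 12 libraries and LDHA in 11. The structural proteins of the ribosome stood lower, with 23 of 79 genes (29.1%) in some library and 3 in 6 or more, led by RPL27 with 10 libraries, RPL23 with 8, RPL18 with 6 and RPS2 with 5.

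The Myc shares were closer to one another, at 17.1% of the 35 genes, 16.0% of the further ribosome biogenesis genes, 16.9% of the further MYC targets and 13.9% of the ribosomal protein genes. A lead of at least 4 times for U2OS-CHRONO was found for 4 further ribosome biogenesis genes (3.36%), 3 further MYC targets (4.62%) and 4 ribosomal protein genes (5.06%). The share was 2.86% of the 35 genes and 1.48% of all genes. These differences among lists were not tested.

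**Figure D5:**
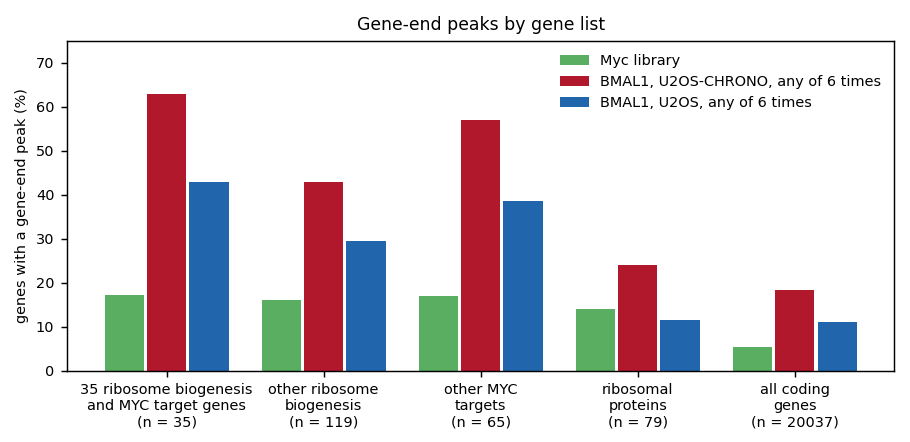
Bars give the share of genes with a gene-end peak (percent) in the Myc library, in U2OS-CHRONO BMAL1 at any of 6 times and in U2OS BMAL1 at any of 6 times, for 4 gene lists and all protein-coding genes. The 35 genes stand at 62.9% for U2OS-CHRONO and 42.9% for U2OS, the ribosomal protein genes at 24.1% and 11.4%, and all genes at 18.3% and 11.1%.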

How the data were processed

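The authors deposited 13 peak lists in BED form, 1 per library, with chromosome, start, end, a peak name and a score; 3 input libraries were not analysed here. No source used here defines the score that the authors deposited, which was 50 or higher in every list. Scores were ranked only among peaks of one list, but the cut-off of 100 was applied alike to all 13 lists. Counts under that cut-off take the undefined score to mean the same in each list. Tools in the submitters' processing notes are HOMER 4.10.3, MACS 1.4.2 and bedtools, with hg38 as the build, and no role is given for any. Aligner, control and read depth are not given there.

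Peaks and genes (RefSeq table of GRCh38) were joined in Python 3.11.15 with NumPy 2.4.6, pandas 2.3.3 and SciPy 1.17.1, and drawn with matplotlib 3.10.9. An overlap of at least 1 bp counted. Gene-end counts equalled those of bedtools 2.31.1 in 13 of 13 libraries. Lines were paired by the time label. The 35 genes, the other lists and the tests were chosen with earlier results of these data known.

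Genes described in depth had a gene-end peak in 6 or more BMAL1 libraries, a Myc peak, or a lead of at least 4 times for a line; up to 4 genes are named from each other list, by number of libraries and then mean percentile. Alternatives were equal list sizes, scores of 100 or higher, wider windows, peak centres, a 50% overlap, chromosomes 1 to 22 and X, 3 times, no pairing, and each time left out.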

Additional observations from a re-analysis of the deposited data

Results flagged for a closer look

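In sets of 4 to 6 libraries of 1 line, 5 of 25 had a library far from the others. For independent replicates chance would give about 1 in 20. These sets share libraries and run over times, so the 5 cannot be set against that rate. The share of members over the share of all genes was 6.22 at 8 h in U2OS-CHRONO, the highest of its 6 times. The APEX1 gene-end peak had a score percentile of 32.9 at 20 h in U2OS-CHRONO, the lowest of 4 times, and of 42.5 at 16 h in U2OS, the lowest of 5. The NCL peak had 39.9 at 12 h in U2OS, the lowest of 5. The RRP9 peak had 34.7 at 8 h in U2OS, the lowest of 6, in a list of 337 peaks. The causes were not tested.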

How the results depend on the processing

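Of 105 values under an alternative, 94 kept to within 1.5 times for counts, or within 1 SD over times for means. The 94 include the mean difference at equal list sizes, whose sign turned. They also include values with little or no room to move, such as the per-gene test, so their number does not measure robustness. With a score of at least 100, the mean number of members with a gene-end peak in U2OS-CHRONO was 5.83, beside 3.24% of all genes. At that score the number in any library was 13, beside 7.61% of all genes. The Myc library then had 0 members, hence 0 overlaps with BMAL1, and 0.629% of all genes had a gene-end peak there. The number of members with 4 or more additional U2OS-CHRONO times was 0 at equal list sizes and 0 with 5 kb at either gene end, and 3 members (NOLC1, GNL3 and EIF4E) had 3 or more additional times. It was 1 with a score of at least 100, but this gene was NPM1, and 1 in the wider window, but this gene was PES1. The U2OS peaks of the second NPM1 region, which lay outside the gene-end window and were not counted, scored from 109 to 407. With each time left out in turn the number of members with such a lead ran from 0 to 1. GNL3 stayed without 0 or 12 h and was lost without 4, 8, 16 or 20 h, where 4 of 5 times were needed. Over all genes, such a lead for U2OS-CHRONO was found for 297 genes and for U2OS for 5. These counts were 116 and 7 with a score of at least 100, 54 and 20 at equal list sizes, 438 and 10 with 5 kb at either gene end, 615 and 19 in the wider window, and 742 and 30 for a lead of at least 3 times. With each time left out in turn, the mean difference between the lines ran from 2.0 (without 16 h) to 4.6, and the number of members in any library from 19 to 23. At equal list sizes the difference was -0.83 and the number 17, and with a score of at least 100 the difference was 1.83. Without the pairing by time (no replicate block), the exact permutation test passed 0 of 20037 genes after adjustment, as the paired test did, and 77 had an unadjusted p under 0.05, none of them a member. The list of 337 peaks limits what could be called in U2OS at 8 h. Without read depth, a missing peak does not show that binding is absent.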
